A study of Mus musculus with 9 samples.

Results

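MicroRNAs (miRNAs) of the resting mouse colon were described from the 3 untreated (Control) libraries, Control 1, Control 2 and Control 3, out of 9 libraries in the series. They were chosen by their group label alone. The samples were colon tissue of wild-type C57BL/6J mice, an inbred laboratory strain, fed a normal diet with plain water, and the sources used here do not give the age of the mice. The 6 other libraries, from colons exposed to dextran sulfate sodium with or without royal jelly acid, were not used here. The labels do not say whether each library came from its own animal, so the spread given below may be partly technical.

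A miRNA is cut from a hairpin precursor as a duplex of a 5p and a 3p strand, 1 from each side of the hairpin. As a rule the Argonaute protein keeps 1 of these strands, the guide, and the other, the passenger, is degraded. The guide finds messenger RNAs mainly by pairing through its seed, the bases 2 to 8 from its 5′ end, so miRNAs with the same seed are grouped as a family with overlapping targets. The wall of the colon holds a lining of epithelial cells, connective tissue with vessels and immune cells, smooth muscle and enteric nerves, and several miRNAs are known to be enriched in 1 of these.

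The mature sequences of the miRNAs on which the composition turned are given from RefSeq (build GRCm38.p6), 5′ to 3′, with the seed in capitals, so that the shared seeds of the families described below can be read off.
miR-21a-5p: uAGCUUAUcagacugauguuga
miR-192-5p: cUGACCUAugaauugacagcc
miR-215-5p: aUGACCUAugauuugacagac
miR-200b-3p: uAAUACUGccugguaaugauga
miR-200c-3p: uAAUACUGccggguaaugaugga
miR-429-3p: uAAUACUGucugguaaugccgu
miR-200a-3p: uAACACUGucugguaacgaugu
miR-141-3p: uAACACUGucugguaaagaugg
let-7f-5p: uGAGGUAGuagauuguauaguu
let-7i-5p: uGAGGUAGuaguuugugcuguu
miR-10a-5p: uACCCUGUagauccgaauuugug
miR-10b-5p: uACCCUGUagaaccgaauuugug
miR-148a-3p: uCAGUGCAcuacagaacuuugu
miR-30a-5p: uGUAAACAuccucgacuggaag
miR-26a-5p: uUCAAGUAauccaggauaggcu
miR-100-5p: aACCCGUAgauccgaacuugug
Of the 25 most abundant miRNAs, miR-143-3p, miR-378a-3p, miR-145a-5p, miR-30d-5p, miR-1a-3p and miR-1b-5p are named only.

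The libraries held 7514959, 8280980 and 7057285 counts in Control 1, Control 2 and Control 3. A count was recorded for 690, 743 and 699 of the 1155 listed entries, and 262 entries were at 0 in all 3 libraries. Of the entries, 378 had at least 10 counts in every library and held 99.98% of the counts, and 205 had at least 100. Levels are given as the deposited TPM, which here is counts per 1000000 counts of the library with no term for length. A count of 0 allows a level of up to 0.399, 0.362 and 0.425 TPM in Control 1, Control 2 and Control 3 (3 counts). These limits, and the intervals below, cover counting error only, because the libraries were amplified by PCR without molecular identifiers and several reads can stem from 1 molecule.

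A single miRNA filled most of each library. miR-143-3p, from the miR-143/145 locus known for its role in the contractile state of smooth muscle, held 70.9% of the counts in Control 1, 69.3% in Control 2 and 66.4% in Control 3. The mean was 68.9% ± 2.30 (SD, n = 3 libraries, as for every ± below), and the exact 95% binomial interval of each library was no wider than 0.0349 percentage points to either side. The libraries were thus further apart than counting error. miR-143-3p stood 8.75 times above the next miRNA by mean TPM. It left 2187705, 2538800 and 2374200 counts for all other miRNAs, and every share without it refers to these totals. The depth for the rest of the miRNAs was therefore well under the library totals.

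miR-21a-5p, a broadly expressed miRNA of many tissues that is known to repress Pdcd4, ranked second. Its level was 65425 TPM in Control 1, 76265 TPM in Control 2 and 94339 TPM in Control 3. With miR-143-3p left out it held 25.1% ± 2.79 of the remaining counts. miR-192-5p, an intestinal and kidney epithelial miRNA, followed with 48921, 46622 and 56543 TPM in Control 1 to 3, or 16.3% ± 0.923 of the counts without miR-143-3p. Both were above every other miRNA but miR-143-3p in all 3 libraries, and each library ranked miR-21a-5p above miR-192-5p.

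miR-200b-3p, which represses the mesenchymal factors Zeb1 and Zeb2 and so helps to keep cells epithelial, came next with 15396, 14924 and 16392 TPM. miR-148a-3p had 11300, 11725 and 13347 TPM. miR-378a-3p, cut from an intron of the metabolic coactivator gene Ppargc1b, had 10861, 10306 and 11566 TPM. Each of these 3 was highest in Control 3. The ranges of miR-148a-3p and miR-378a-3p overlapped, although miR-148a-3p was the higher of the pair within each library.

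Places 7 to 10 were taken by miR-10a-5p, whose gene lies beside the Hox genes of chromosome 11, miR-30a-5p, miR-26a-5p and miR-145a-5p, the partner of miR-143 in smooth muscle. miR-10a-5p had 8234, 10837 and 10161 TPM. miR-30a-5p had 7587, 9268 and 9147 TPM. miR-26a-5p had 7334, 7876 and 7964 TPM. All of them were lowest in Control 1. miR-145a-5p had 7034, 7614 and 5951 TPM and was lowest in Control 3. Between neighbours among these 4 the means differed by 1.12 times, and the ranges overlapped.

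The further members of the first 25 were miR-200a-3p (mean 6385 TPM), let-7f-5p (5581), miR-27b-3p (5387), miR-194-5p (5118), miR-215-5p (5014), miR-24-3p (4738), miR-3074-5p (4733), miR-30d-5p (3793), let-7i-5p (3368), miR-1a-3p (3201), miR-1b-5p (3198), miR-100-5p (3190), miR-126a-3p (2927), miR-10b-5p (2639) and miR-429-3p (2358). Of the 25 steps from each of these miRNAs to the next one down, ending at miR-375-3p in place 26, 15 had the same order in all 3 libraries. The first 4 steps, down to miR-148a-3p, were also wider than the range between libraries, as were 3 of the later ones (miR-200a-3p to let-7f-5p, miR-3074-5p to miR-30d-5p and miR-100-5p to miR-126a-3p), and the neighbours at the other steps overlapped. The 25 together held 95.1% of all counts, and 84.3% of the counts that remained without miR-143-3p. A pair among them, miR-24-3p and miR-3074-5p, and another, miR-1a-3p and miR-1b-5p, had almost the same count in each library, as described below.

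**Figure D1:**
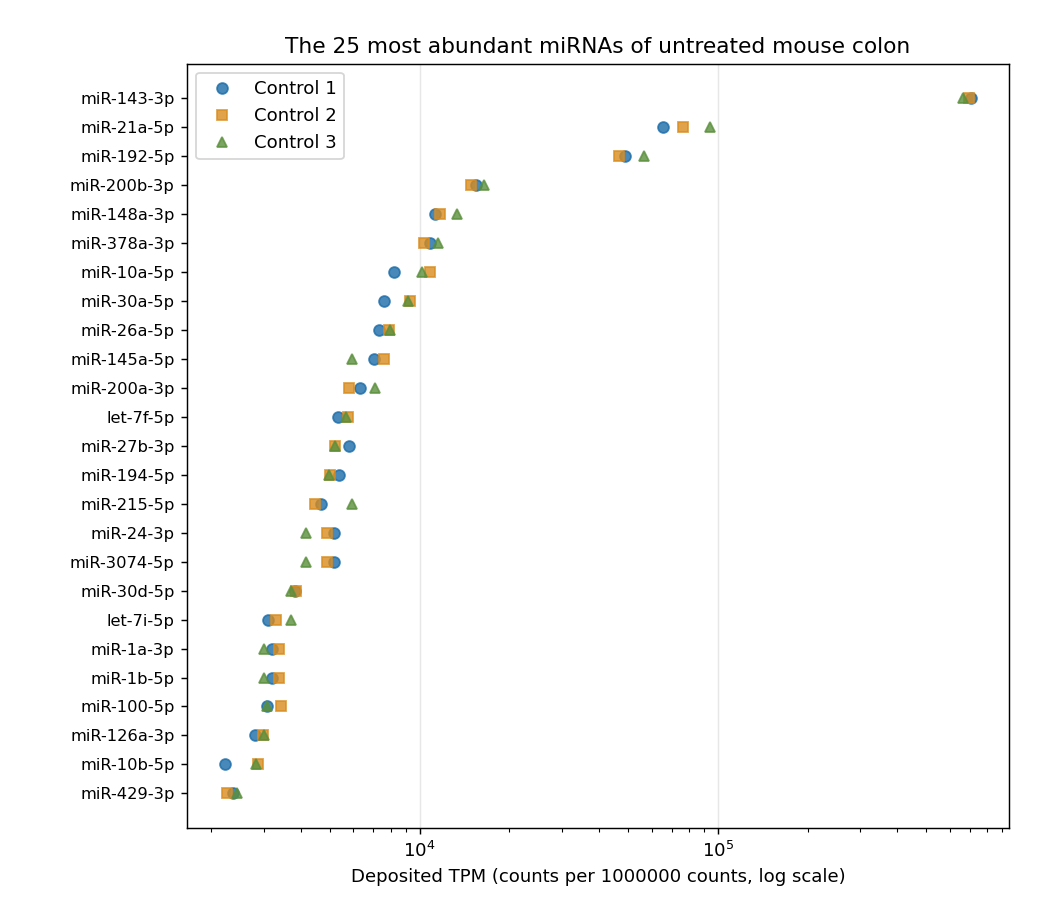
Level of the 25 most abundant miRNAs (vertical axis, in order of mean level) in each of the 3 Control libraries, as deposited TPM on a log scale, 1 point per library. miR-143-3p stands apart on the right, at 663582 to 708887 TPM, and from miR-148a-3p down the points of neighbouring miRNAs mostly overlap.

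The concentration can be given as the number of miRNAs needed to reach a share of the counts. A share of 50% was reached with 1 miRNA, 90% with 12 and 99% with 77. Without miR-143-3p these numbers were 4, 35 and 139. By level, 6 entries had a mean of at least 10000 TPM, 36 of at least 1000 TPM, 103 of at least 100 TPM and 231 of at least 10 TPM. The number for 90% was 12 in each of the 3 libraries.

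Seed families were formed from the 962 entries with a sequence, out of 1126 with a mouse miRNA name. These held 27.7% of all counts but 88.8% ± 0.949 of the counts without miR-143-3p, since miR-143-3p itself was not among them. They carried 830 seeds, of which 68 had at least 2 detected members. The 10 largest of the families so formed held 22.4% ± 2.44 of all counts and 71.8% ± 2.48 of those without miR-143-3p. In the following, family shares refer to the total without miR-143-3p.

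The seed of miR-21a-5p had a single listed member and was the largest, with 22.5% in Control 1, 24.9% in Control 2 and 28.0% in Control 3. The seed shared by miR-192-5p and miR-215-5p was next with 18.4%, 16.7% and 18.6%. Of this family, miR-192-5p made up 91.0% ± 0.444 and miR-215-5p 8.97% ± 0.444, although the mature sequences differ little, as the lines above show. These 2 families alone outweighed the other 8 of the 10.

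The miR-200 miRNAs fall into 2 seeds that differ by a single base, and both were among the 10. The first, with miR-200b-3p, miR-429-3p and miR-200c-3p, held 6.73%, 6.19% and 6.22% of the counts without miR-143-3p. Within it miR-200b-3p took 78.6% ± 0.141, miR-429-3p 11.9% ± 0.205 and miR-200c-3p 9.54% ± 0.336. The second, with miR-200a-3p and miR-141-3p, held 2.17%, 1.90% and 2.11%, and miR-200a-3p made up 99.4% ± 0.0500 of it. The main member of either seed, miR-200b-3p or miR-200a-3p, comes from the chromosome 4 locus described below.

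The let-7 family, which is known to restrain growth genes such as Lin28 and Hmga2, was divided among more members than the others. Its 10 listed members held 4.67%, 4.78% and 4.37%. let-7f-5p led with 39.0% ± 0.429 of the family, before let-7i-5p with 23.5% ± 1.45, let-7c-5p with 12.8% ± 0.609, let-7g-5p with 10.9% ± 0.130, let-7a-5p with 5.55% ± 0.424 and let-7b-5p with 5.27% ± 0.185. let-7k was at 0 in all 3 libraries. Members of let-7 differ by few bases, and the sources used here do not give the authors' rule for reads that match several miRNAs, so the split between them is uncertain.

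Of the remaining families of the 10, the miR-100 family was divided the most evenly. The family of miR-10a-5p and miR-10b-5p held 3.59%, 4.47% and 3.86%, and miR-10a-5p made up 78.7% ± 0.392 of it. The ratio of the pair was 3.71, 3.77 and 3.60 in Control 1 to 3, although both were lowest in Control 1. The family of miR-148a-3p held 3.96%, 3.90% and 4.04%, with 98.2% ± 0.131 in miR-148a-3p. The miR-30 seed held 2.97%, 3.40% and 3.06%. In it miR-30a-5p took 88.5% ± 0.611 and miR-30c-5p 7.16% ± 0.738, among members with a sequence. miR-30d-5p (3793 TPM) and miR-30b-5p (178 TPM) belong to the family by name and have no sequence in the table used. With them, an addition made after the data were seen, the family held 4.34%, 4.72% and 4.22%, above the miR-10 and miR-148a families in all 3 libraries. miR-30a-5p then made up 62.9% ± 2.43 and miR-30d-5p 27.7% ± 2.29. miR-378a-3p, with 3.51% ± 0.195 of the counts without miR-143-3p, and miR-145a-5p, with 2.22% ± 0.395, likewise entered no family. By mean, each of them alone exceeded the seeds of miR-200a-3p (2.06%) and miR-100-5p (2.07%). The places of these seeds among the 10 therefore depend on leaving out entries without a sequence. The miR-26 seed held 2.61%, 2.66% and 2.48%, with 96.1% ± 0.647 in miR-26a-5p. The seed of miR-100-5p, miR-99a-5p and miR-99b-5p held 2.15%, 2.27% and 1.79%, and was split into 49.8% ± 1.10 for miR-100-5p, 25.2% ± 0.998 for miR-99b-5p and 25.04% ± 2.09 for miR-99a-5p.

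**Figure D2:**
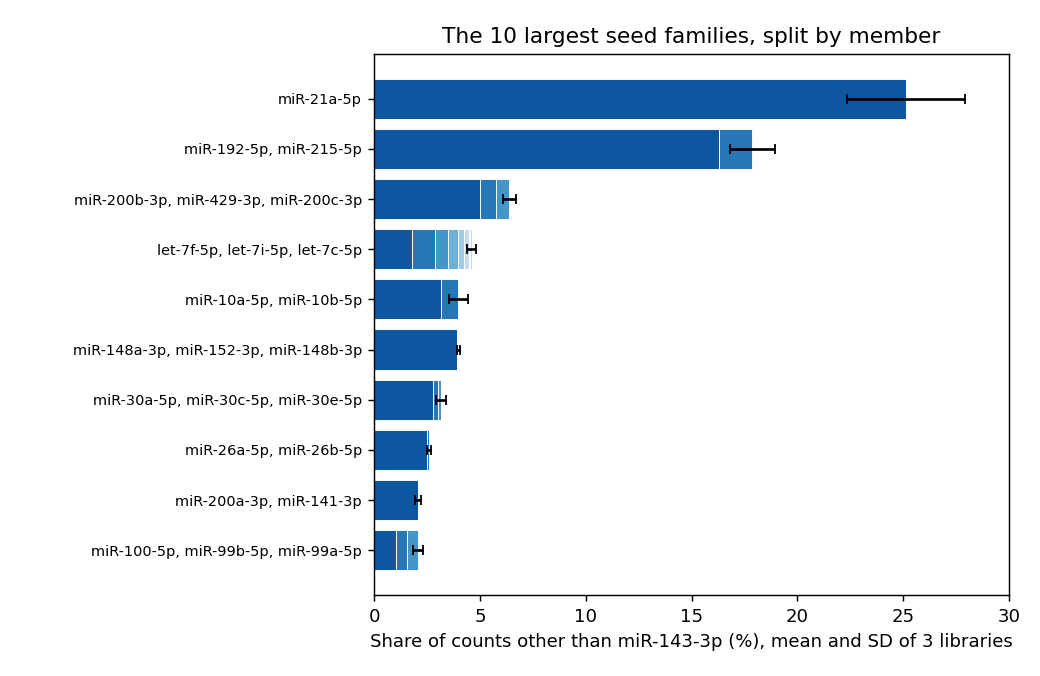
Share of the counts other than miR-143-3p held by each of the 10 largest seed families (horizontal axis, mean of 3 Control libraries, bar from 0; whiskers are the SD), with each bar divided into the family's members, the most abundant at the left. miR-21a-5p and the miR-192 seed reach 25.1% and 17.9%, and most bars are nearly all of 1 colour, that is, of 1 member. Entries without a sequence are in no family.

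miRNA genes that lie close together are often transcribed as a unit, so counts were also summed by precursor cluster (same strand, neighbours at most 10 kb apart, GENCODE annotation of GRCm38). The annotation placed 1094 entries, with 99.97% of the counts, on 796 precursors, and 60 clusters had at least 2 precursors. The cluster of Mir143 and Mir145a on chromosome 18 held 69.6% ± 2.37 of all counts. In it miR-143-3p exceeded miR-145a-5p by 101, 91.1 and 112 times in Control 1 to 3. miR-145a-3p averaged 448 TPM and miR-143-5p 166 TPM.

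The cluster of Mir194-2 and Mir192 (chr19:6264643-6264932, plus strand, no overlapping gene annotated) held 5.59% ± 0.511. Its relative with Mir194-1 and Mir215 (chr1:185313319-185313692, plus strand, in the non-coding gene 2010103J01Rik and opposite to an intron of Iars2) held 1.03% ± 0.0737. Both can yield miR-194-5p, an epithelial miRNA under the control of HNF transcription factors, and its counts enter both sums. The 3p arms tell the loci apart, and miR-194-2-3p exceeded miR-194-1-3p by 2.12, 2.10 and 1.97 times in Control 1 to 3. miR-192-5p stood 10.5, 10.5 and 9.54 times above miR-215-5p. It stood 9.10, 9.30 and 11.4 times above miR-194-5p, and this ratio was highest in Control 3.

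The cluster of Mir429, Mir200a and Mir200b (chr4:156053905-156055750, minus strand, within introns of Ttll10 and in the non-coding gene Gm13648) held 2.56% ± 0.152. Its proportions were steady. miR-200b-3p exceeded miR-429-3p by 6.51, 6.59 and 6.71 times and miR-200a-3p by 2.45, 2.57 and 2.32 times. At the chromosome 6 locus (Mir200c at chr6:124718322-124718390 and Mir141 at chr6:124717914-124717985, minus strand, in an intron of the antisense gene Gm15884), miR-200c-3p exceeded miR-141-3p by 46.7, 48.5 and 54.4 times.

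The other clusters of the 8 largest held a little over 1% or less. Mir23b, Mir27b and Mir24-1 (chr13:63300484-63301275, plus strand, in introns and exons of 2010111I01Rik) held 1.07% ± 0.0842, with miR-27b-3p 9.33, 8.58 and 9.86 times above miR-23b-3p. Mirlet7d, Mirlet7f-1 and Mirlet7a-1 on chromosome 13 held 0.671% ± 0.0242. Mir23a, Mir27a and Mir24-2 on chromosome 8 held 0.632% ± 0.0546. There miR-23a-3p exceeded miR-27a-3p by 2.64, 3.08 and 2.25 times, the opposite order to the chromosome 13 cluster. miR-27a-3p and miR-27b-3p differ by a single base, so the split of reads between them is uncertain, as for let-7. Mirlet7f-2 and Mir98 on the X chromosome held 0.561% ± 0.0218, nearly all of it let-7f-5p, which both let-7f loci can yield. miR-24-3p likewise belongs to 2 of these clusters and is counted in both.

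To describe the tissue by cell type, counts were summed over lists of miRNAs known to be enriched in a cell type. In whole tissue, fewer cells of a type and less of the miRNA per cell cannot be told apart, and other cells of the colon can also express these miRNAs. The lists together held 80.2% of all counts, and 36.3% of those without miR-143-3p. The rest, 63.7% ± 1.39, belonged to miRNAs of no list, led by the broadly expressed miR-21a-5p.

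The colon epithelium list was by far the largest once miR-143-3p was left out. It held 29.8% of the counts in Control 1, 27.0% in Control 2 and 29.0% in Control 3, and 8.90% ± 0.762 of the full total. Of its 19 members, 18 were listed and all 18 had at least 10 counts in every library. Its defining members miR-192-5p, miR-194-5p and miR-200b-3p made up 7.14% of the full total. miR-203-3p, a miRNA of differentiating epithelia, was lower, with 354, 371 and 439 TPM in Control 1 to 3.

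The smooth muscle list of miR-143 and miR-145a held 69.6% ± 2.37 of the full total, 71.7% in Control 1, 70.2% in Control 2 and 67.0% in Control 3. Without miR-143-3p it held 2.63%, 2.70% and 1.94%. The large share of this list thus rested on miR-143-3p alone. The list of miR-1, miR-133 and their relatives, miRNAs of striated muscle that are also made in smooth muscle, held 2.51%, 2.49% and 1.98% of the counts without miR-143-3p. Its defining member miR-1a-3p had 3207, 3378 and 3017 TPM and miR-133a-3p had 577, 595 and 431 TPM. miR-206-3p, best known from skeletal muscle, had 273, 253 and 168 TPM, and miR-133b-3p had 27.8, 31.2 and 21.3 TPM. miR-499-5p, a heart and slow skeletal muscle miRNA, averaged 1.68 TPM. Both muscle lists, miR-1a-3p, miR-133a-3p, miR-206-3p and miR-133b-3p were lowest in Control 3. The miR-1b-5p entry, whose counts nearly equalled those of miR-1a-3p, is part of the list's sum.

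Of the 7 miRNAs in the enteroendocrine and secretory list, which mark hormone-producing and other secretory cells, 6 were listed, and the list held 1.13%, 1.15% and 1.38% without miR-143-3p. miR-375-3p, its defining member, had 2155, 2063 and 2599 TPM. miR-7a-5p had 956, 1256 and 1785 TPM and miR-7b-5p 179.6, 204 and 260 TPM. All 3 were highest in Control 3. miR-7b-3p was at 0 in all 3 libraries.

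The connective tissue and vessel lists were small and even. The endothelium list held 0.975%, 0.990% and 0.908% without miR-143-3p. It is led by miR-126a-3p, made from a transcript of the endothelial gene Egfl7, which had 2796, 2983 and 3001 TPM, while miR-126a-5p averaged 50.1 TPM. The fibroblast list held 0.293%, 0.274% and 0.277%. In it miR-199a-3p had 500.5, 481 and 593 TPM and miR-214-3p had 64.7, 57.6 and 49.9 TPM. miR-199a-5p averaged 226 TPM, miR-214-5p 34.1 TPM and miR-199b-5p 33.5 TPM.

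Blood cell lists were close to the bottom. The lymphocyte list summed to 494, 643 and 538 TPM. Its defining miR-150-5p had 368, 470 and 409 TPM and miR-342-3p had 89.0, 127 and 82.3 TPM, while miR-155-5p, raised in activated lymphocytes and macrophages, averaged 39.1 TPM. The pan-leukocyte and myeloid list summed to 44.2, 57.8 and 75.9 TPM. Of its defining members, miR-142a-5p, made in blood cell lineages, had 18.0, 27.0 and 47.5 TPM, and miR-223-3p, a miRNA of neutrophils and monocytes, had 11.7, 11.1 and 10.2 TPM. miR-142a-5p was highest in Control 3 and miR-223-3p was lowest there. The mean ratio of miR-223-3p to miR-150-5p was 0.0268 ± 0.00440.

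Red blood cell miRNAs summed to 384, 371 and 393 TPM. miR-451a, the most abundant miRNA of red blood cells, had 81.3, 108 and 155 TPM in Control 1 to 3, and miR-486a-5p had 101, 87.9 and 79.2 TPM, so that miR-486a-5p was the higher in Control 1 and miR-451a in Control 2 and Control 3. miR-144-3p, from the same cluster as miR-451a, averaged 0.129 TPM. The entries of miR-486 (miR-486a-5p, miR-486a-3p and miR-486b-3p) had near-identical counts and are not independent.

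The neuron list summed to 569.8, 618 and 562 TPM. miR-9-5p had 250.2, 282 and 214 TPM, whereas miR-124-3p, the most neuron-specific of the list, had only 1.73, 1.09 and 0.850 TPM, from 13, 9 and 6 counts. miR-128-3p averaged 116 TPM, miR-129-5p 95.3 TPM and miR-138-5p 11.3 TPM. The 2 defining members of this list therefore differed by more than 2 orders of magnitude. miR-9-5p and miR-129-5p each had a complementary entry with near-identical counts, given below. The entry for miR-129-5p, miR-129b-3p (mean 95.1 TPM), is part of the list's sum, and the entry for miR-9-5p is not.

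The list of miRNAs of other organs served as a floor and summed to 32.1, 30.4 and 26.2 TPM. Of its 13 members 6 were listed, and 2 of these, miR-122-3p and miR-216b-5p, were at 0 in every library. Nearly all of the sum was miR-205-5p, a miRNA of stratified epithelia, with 30.3, 28.5 and 24.4 TPM. The liver miRNA miR-122-5p had 1.73, 1.33 and 1.84 TPM. The heart miRNA miR-208b-3p and the pancreas miRNA miR-217-5p were each counted in Control 2 only. The leading epithelial and muscle miRNAs, miR-192-5p, miR-143-3p and miR-1a-3p, were thus high. The liver, heart and pancreas miRNAs of the list of other organs were at 1.84 TPM or less, and miR-205-5p lay above them.

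**Figure D3:**
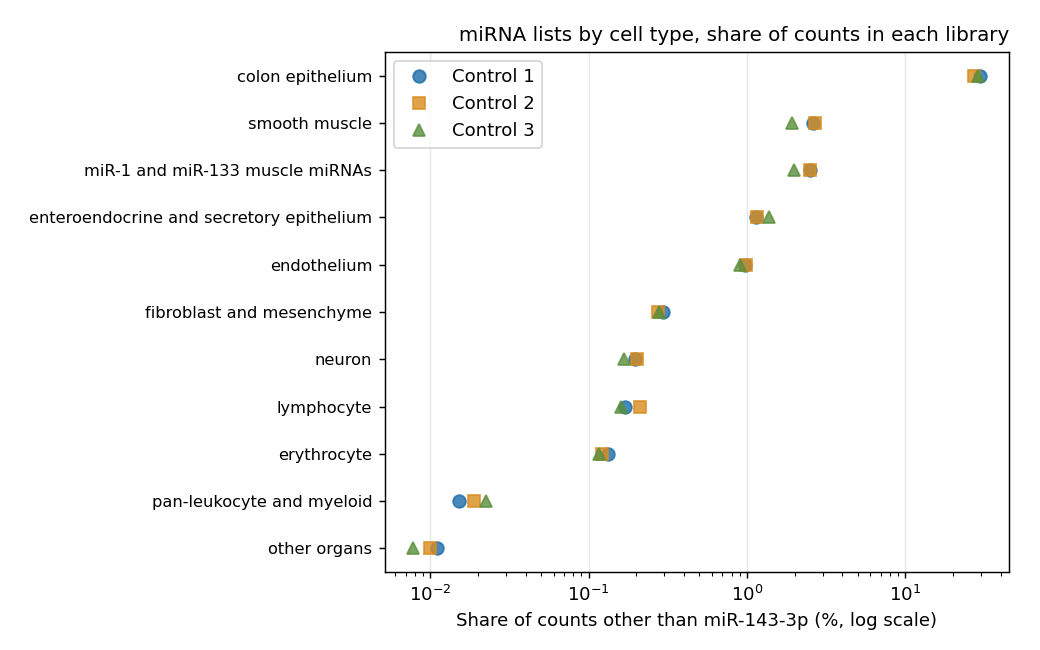
Share of the counts other than miR-143-3p held by each cell type list (horizontal axis, log scale), 1 point per Control library. The colon epithelium list lies at 27.0% to 29.8%, above all others, and the 3 libraries are close together for most lists, with Control 3 lowest in both muscle lists.

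Both arms were listed for 363 precursors, and 147 of them had at least 100 counts of both arms together in every library. In these, 66 had at least 90% of their counts on the 5p arm and 41 on the 3p arm, 107 in all (72.8%). A single arm held at least 99% in 65 precursors, and the median share of the more abundant arm was 98.2%. The 5p arm was the more abundant in 86 and the 3p arm in 61. The SD of the 5p share over the 3 libraries had a median of 0.146 percentage points in the 107 precursors, where a share near 0% or 100% leaves little room to vary. In the other 40 it had a median of 2.29 and a highest value of 7.15 (miR-322).

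The precursors of the most abundant miRNAs were among the most one-sided. miR-21a had 491665, 631546 and 665776 counts on its 5p arm against 3, 10 and 4 counts on its 3p arm in Control 1, Control 2 and Control 3, so the 5p arm held 99.9991%. miR-192 held 99.96% on its 5p arm, let-7f 99.99% and miR-10a 99.87%. miR-143 went the other way, with 1244, 1367 and 1181 counts on the 5p arm and a 5p share of 0.0241% ± 0.000973. The 5p strand of miR-143, although so small a share, still had a level of 166 TPM.

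Other abundant precursors with a 3p guide were miR-27b with 0.318% ± 0.0327 on the 5p arm, miR-148a with 0.678% ± 0.0239, miR-200b with 1.28% ± 0.0593, miR-378a with 1.47% ± 0.136, miR-126a with 1.68% ± 0.160 and miR-24 with 3.95% ± 0.531. miR-200a kept more of its 5p strand, 14.7%, 15.2% and 13.7% in Control 1 to 3, than its cluster neighbour miR-200b. On the 5p side, miR-145a had 93.9% ± 0.184, miR-3074 96.1% ± 0.536, miR-215 97.2% ± 0.0815, miR-30a 97.9% ± 0.331, miR-194 98.6% ± 0.102, miR-30d 99.74% ± 0.00180, miR-26a 99.84% ± 0.0448, let-7i 99.90% ± 0.0165, miR-10b 99.98% ± 0.0159 and miR-100 99.99% ± 0.00541. miR-143 and miR-145a, though neighbours in a cluster, thus used opposite arms. The same cannot be said of miR-24 and miR-3074. Their entries had near-identical counts, miR-24-3p with miR-3074-5p and miR-24-2-5p with miR-3074-2-3p, so their arm shares are not independent. A different set, the 18 precursors listed under several numbered loci that share an arm, was left out as an alternative. Of the remaining precursors, 92 had at least 90% on 1 arm.

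In 6 precursors the minor arm was at 0 in every library, namely miR-107, miR-328 and miR-381 with no 5p count, and miR-149, miR-497a and miR-7b with no 3p count. The counts of the other arm allow a minor share of up to 2.46% for miR-107, 1.32% for miR-497a, 0.642% for miR-149, 0.621% for miR-381, 0.598% for miR-328 and 0.222% for miR-7b, each in the library with the fewest counts. Next to them at the 3p end came miR-1a, miR-103 and miR-23a, with at most 2 counts of the 5p arm in any library. At the 5p end came miR-21a, let-7c and miR-182, the last of these with 0, 1 and 2 counts of the 3p arm.

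Only 7 precursors lay between 40% and 60%. The 5p share was 43.4% ± 5.01 in miR-3068, 50.1% ± 0.108 in miR-486a, 51.4% ± 4.28 in miR-15b, 55.1% ± 1.98 in miR-132, 56.7% ± 2.91 in miR-196a, 57.3% ± 4.10 in miR-700 and 58.0% ± 4.24 in let-7d. The more abundant arm differed between libraries in 2 of them, miR-15b and miR-486a. The arms of miR-486a had almost the same count in each library (762 and 759, 728 and 730, 559 and 556). For miR-15b the 5p share was 56.3%, 49.8% and 48.2%, from 320 to 408 counts of both arms together. In let-7d the share was 53.5%, 58.4% and 61.9%, and no library had the 3p arm above the 5p arm.

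**Figure D4:**
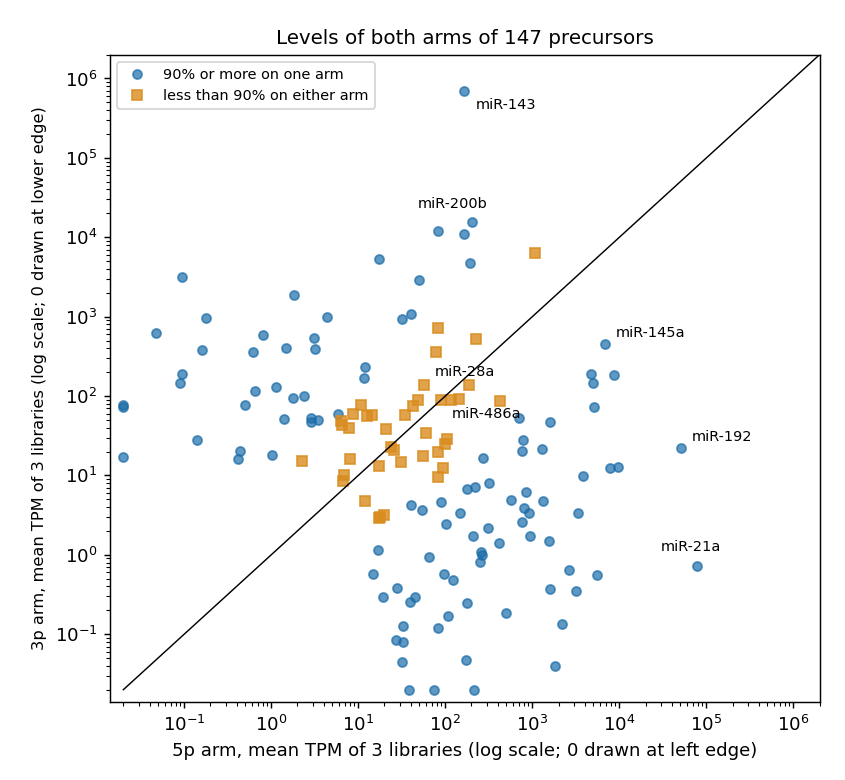
Mean level of the 5p arm (horizontal axis) and of the 3p arm (vertical axis) of 147 precursors, both in TPM on log scales and averaged over 3 Control libraries, with a line where both arms are equal. The 107 precursors with at least 90% on 1 arm lie far from the line on either side, and arms at 0 are drawn at the edge.

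The first base of a strand is known to be read by Argonaute, which prefers a U there. Both arms had a sequence in 116 of the 147 precursors. The more abundant arm began with U in 71 of them (61.2%) and the less abundant arm in 23 (19.8%). Among the 81 of these with at least 90% on 1 arm, the numbers were 54 and 12, and among the other 35 they were 17 and 11. Of the 86 entries with a sequence and a mean of 100 TPM or more, 60.5% began with U, against 43.0% of the 114 at 10 to 100 TPM, 34.0% of the 150 at 1 to 10 TPM and 44.4% of the 387 detected entries under 1 TPM. The share was highest among the most abundant, with no steady order below. Of the counts of the class of 86 entries, U, the first base of miR-21a-5p, began 71.5% ± 1.29. C, the first base of miR-192-5p, began 20.6% ± 1.02. This class leaves out miR-143-3p and the other abundant entries without a sequence. The lengths in that class were 19 to 25 bases, with a median of 22, and 79 of 86 had 21 to 23 bases.

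The spread between the libraries was described for the 103 miRNAs with a mean of at least 100 TPM. The median coefficient of variation (CV, the SD as a percent of the mean) was 7.01%, with quartiles of 4.39% and 11.5%. It was under 10% in 66 of them and over 20% in 5. Relative to the total without miR-143-3p the median CV was 9.65%. The median chi-square per degree of freedom was 29.8, and the value was under 3 in 17 miRNAs. If counting error alone separated the libraries, its mean over miRNAs would be near 1 and its median somewhat lower. Without Control 3 the median CV was 4.29%, against 7.23% without Control 1 and 6.51% without Control 2.

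Control 1 and Control 2 were the closest pair. Over these miRNAs the SD of the log2 ratio was 0.13 between Control 1 and Control 2, 0.26 between Control 1 and Control 3 and 0.23 between Control 2 and Control 3. Between Control 1 and Control 2 no miRNA differed by more than 0.41 on the log2 scale, against up to 0.93 between Control 1 and Control 3. Control 3 had the lowest value of the 3 libraries in 43 of the 103 miRNAs and the highest in 40. Relative to the total without miR-143-3p, it was the lowest in 74 of 102. The share of miR-21a-5p in that total was largest in Control 3 (28.0%, against 22.5% and 24.9%), and its part in this was not tested.

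The largest CV for the full total was that of miR-451a, 32.7%, with 81.3, 108 and 155 TPM in Control 1 to 3, and next came miR-7a-5p with 31.5%, from 956, 1256 and 1785 TPM. miR-378c, a relative of miR-378a-3p, had 559.8, 482 and 785 TPM (25.9%). miR-206-3p had a CV of 24.2%, miR-26b-5p 20.9% and miR-7b-5p 19.3%. Of these 6, miR-206-3p alone was lowest in Control 3, and the others were highest there. Relative to the total without miR-143-3p the order changed, with 30.3% for miR-206-3p, 25.2% for miR-451a, 24.1% for miR-7a-5p, 19.6% for miR-378c, 13.3% for miR-26b-5p and 11.7% for miR-7b-5p. At the other end of the order for the full total, miR-143-5p varied by 0.722%, with 166, 165 and 167 TPM. miR-103-3p varied by 1.25%, miR-181b-5p by 1.26%, miR-128-3p by 1.501%, miR-183-5p by 1.77% and miR-30d-5p by 2.17%. For miR-143-5p, miR-103-3p, miR-181b-5p and miR-128-3p the chi-square per degree of freedom was at most 0.704, no more than counting gives. This held for the full total only, and relative to the total without miR-143-3p it was 5.48, 32.6, 3.30 and 5.16 for these miRNAs. The CV of miR-143-5p was then 6.68%.

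Depth set what could be seen below this level. For the 189 miRNAs with a mean of 1 to 10 TPM the median CV was 22.96%, against a counting CV of 21.2%. At 10 to 100 TPM it was 11.4% against 6.48%, and at 100 to 1000 TPM 7.20% against 2.29%. In the same order, the median chi-square per degree of freedom was 1.25, 3.33 and 13.3. The value of 1.25 is still above the median that counting error alone would give. Counting error was thus a large part of the spread at 1 to 10 TPM, though not all of it. For a single miRNA at this level, other differences between libraries are hard to tell from counting error.

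**Figure D5:**
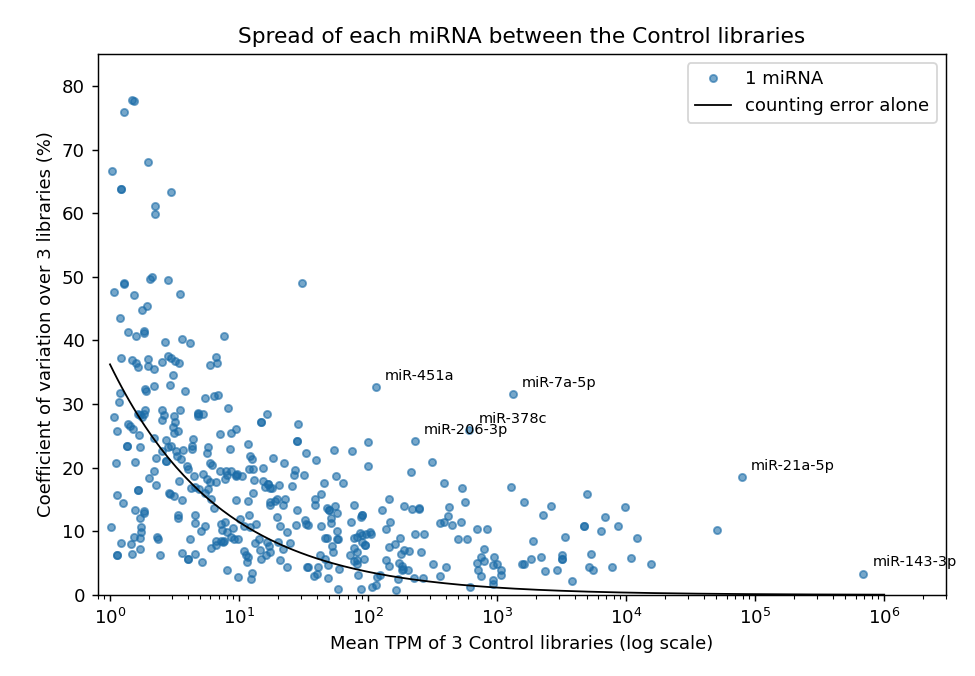
Coefficient of variation of each miRNA over the 3 Control libraries (vertical axis, percent) against its mean level (horizontal axis, TPM, log scale), 1 point per miRNA with a mean of at least 1 TPM, with a line for the CV that counting error alone gives at the mean library size. Points lie around the line at low levels and above it at high levels, where miR-7a-5p, miR-451a and miR-21a-5p stand out.

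Some entries had almost the same count in every library, which bears on the ranking. Of 29 pairs of entries whose sequences are complementary over at least 16 bases, 17 had at least 20 counts of the higher member in every library, and 7 of these were within 2% in all 3. The pair in the first 25 was miR-24-3p, with 38702, 40555 and 29412 counts, and miR-3074-5p, with 38669, 40512 and 29372. The sequences of this pair, of a second near-identical pair and of a pair with very different counts are shown from RefSeq (GRCm38.p6), 5′ to 3′, with the complementary stretch in capitals.
miR-24-3p: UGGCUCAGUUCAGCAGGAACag
miR-3074-5p: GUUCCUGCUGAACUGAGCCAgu
miR-9-5p: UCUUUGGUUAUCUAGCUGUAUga
miR-9b-3p: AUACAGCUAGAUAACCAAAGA
miR-126a-3p: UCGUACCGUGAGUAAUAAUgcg
miR-126b-5p: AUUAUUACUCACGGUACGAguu
miR-9-5p had 1880, 2336 and 1513 counts and miR-9b-3p 1876, 2332 and 1513. In contrast miR-126b-5p had 20, 20 and 38 counts, 0.117% of those of miR-126a-3p, and miR-203b-5p had 4.48% of those of miR-203-3p. The opposite arms of the miR-126 entries, miR-126a-5p and miR-126b-3p, had equal counts (320, 434 and 390 each). The sequence of miR-126a-5p was not available, so this pair was not compared. The other near-identical complementary pairs were miR-24-2-5p with miR-3074-2-3p, miR-129-5p with miR-129b-3p, miR-374b-5p with miR-374c-3p, miR-142a-3p with miR-142b and miR-3065-5p with miR-338-3p.

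The sources used here do not give the rule by which the authors assigned reads to a strand, so the reads of such a pair cannot be told apart, and the members of each pair are reported as uncertain. miR-1a-3p (24104, 27976 and 21290 counts) and miR-1b-5p (24076, 27954 and 21273) were equally close, and are named without a sequence. Closeness alone does not mark shared reads, since miR-140-3p and miR-183-5p, which share no stretch of sequence, also had counts within 0.581% of each other. Keeping 1 entry of each near-identical set would remove 12 entries and 0.875% of the counts, and the share of miR-143-3p would then be 69.5%.

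The authors numbered 29 entries that carry no mouse miRNA name, and these were all but empty in the resting colon. They held 0.000641% of the counts together. The most abundant, novel_339, had 18, 11 and 20 counts, novel_217 had 9, 7 and 9, and novel_264 had 1, 8 and 2. A single one, novel_339, had at least 10 counts in every library.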

How the data were processed

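Small RNA libraries of mouse colon were made with an NEBNext small RNA kit, by adaptor ligation, reverse transcription and PCR, with inserts of 18 to 40 bases read as single reads of 50 bases, per the labels' protocols. Bowtie and DESeq appear in the submitters' processing notes, with no version or role. The sources used here do not give the genome build, miRNA annotation, strand rule or rule for reads matching several miRNAs. Raw counts per mature miRNA were deposited by the authors, per the file headers. The deposited TPM values equalled the count divided by the library total times 1000000. Ligation and amplification can differ between sequences, which was not measured here, so ranks between miRNAs are ranks of counts.

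Only the 3 Control libraries, grouped by their labels, were used, and all 9 samples' columns matched a sample. No comparison between groups was made, no test was run and no p-value is given. Shares, means, SDs, CVs and exact binomial intervals were computed with Python 3.11.15, pandas 2.3.3 and scipy 1.17.1, and TMM factors with edgeR 4.0.16 in R 4.3.3. The spread statistics were tested on simulated data. Total counts were 7057285 to 8280980 per library. Seeds are bases 2 to 8 of RefSeq mature sequences (GRCm38.p6), matched by name for 962 of 1126 entries. Precursor positions come from GENCODE M21 on GRCm38.

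The members and cell type lists were chosen with earlier results of these data known. The text names the 25 most abundant miRNAs, the 10 largest seed families with members of at least 5% of the family, defining and up to 4 other members of each list, precursors with the 6 largest and 6 smallest 5p shares, with 40% to 60%, with a main arm that differs between libraries or among the 25, the 6 largest and smallest CVs at 100 TPM or more, the 8 largest clusters and the 3 most abundant numbered entries. miR-322, miR-203b-5p, the pairs with near-identical counts and the cluster ratios were chosen after their values were seen. Alternatives were another total, count minimum, seed, scaling and member list, and leaving out each library.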

Additional observations from a re-analysis of the deposited data

How the results depend on the processing

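Of 44 alternative values of 7 results, 37 lay within 1 SD between libraries of the reported share, or, for counts and the median CV, within 1.5 times of it. The widest of these were 554 miRNAs at a minimum of 1 count, 144 precursors at a minimum of 10 counts and a median CV of 9.65% without miR-143-3p. Leaving out 1 of 3 libraries can never move a mean share by 1 SD, so for the shares those values lay within it by construction. Leaving miR-143-3p out of the total moved the number of miRNAs that hold 90% of the counts to 35, the share of the 10 largest seed families to 71.8% and the colon epithelium share to 28.6%, by construction. A minimum of 100 counts in every library in place of 10 left 205 miRNAs, and a minimum of 1000 in place of 100 left 68 precursors with at least 90% on 1 arm, out of 78. The defining members alone gave a colon epithelium share of 7.14%. Leaving out each library in turn gave 67.9% to 70.1% for the share of miR-143-3p, 12 miRNAs for 90% of the counts, 385 to 388 miRNAs with at least 10 counts, 21.05% to 23.4% for the seed families, 8.48% to 9.21% for the epithelium, 107 to 108 precursors and a median CV of 4.29% to 7.23%, lowest without Control 3, where the cause was not tested. Keeping 1 entry of each near-identical set, and adding members without a sequence to families by name (22.8% for the 10 families), were chosen after seeing the data. TMM scaling gave a median CV of 6.97%. No paired analysis was possible because a single group was described and no result came from a test. With 3 libraries the SDs are rough, and levels under about 10 TPM are limited by counting.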
